A study of Mus musculus with 12 samples.

Results

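The 10 genes described here encode the stress sensors of the endoplasmic reticulum and the machinery that answers them. They comprised 5 chaperones and folding enzymes (Hspa5, Hsp90b1, Calr, Pdia4 and Dnajb9), 3 sensors (Atf6, Ern1 and Eif2ak3), the transcription factor Xbp1 and the degradation factor Herpud1. Each gene was taken as the array probe set that carries its symbol and no other, and all 10 were found among 19937 named genes. Pdia4 had a second, dimmer probe set, and the brighter one was used. RNA was measured in 12 whole tumours on single-colour arrays, 1 per mouse, in log2 units of intensity. Each mouse received 50000 cells of the murine prostate carcinoma line TRAMP-C2Re3 in its prostate, and the tumour was collected at 60 days. The hosts were C57BL6 mice, wild type in 6 cases (WT) and p62 KO in 6 (KO). Both groups received the same injected cells, which are not described as lacking p62. The p62 genotype of the host is the only difference between the groups that the labels give. The sex and age of the mice and the deleted part of the p62 gene are not given in the sources used here. In RNA of whole tumours, fewer cells of a type and less RNA per cell cannot be told apart.

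Proteins that enter the secretory pathway fold in the endoplasmic reticulum with the help of resident chaperones. When unfolded proteins build up, the sensors ATF6, IRE1 (from Ern1) and PERK (from Eif2ak3) are released from the chaperone BiP (from Hspa5) and start the unfolded protein response. ATF6 is cut to free a transcription factor, IRE1 splices the Xbp1 messenger into its active form, and PERK slows translation and raises ATF4. ATF6 and spliced XBP1 then raise chaperone and degradation genes through short promoter elements. Secretory cells such as plasma cells, fibroblasts and gland epithelium use this machinery heavily, as do many tumours.

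Those elements are shown for the members whose promoters hold them. The members were chosen as genes of this response, and the element was defined from promoters of such genes, so the counts below describe the members and are not independent of their choice. RefSeq promoter windows of build GRCm38.p6, 250 bases before to 50 after each start, were found for 9 of the 10 genes, Atf6 being the exception. They were searched on both strands for the ER stress element, which is CCAAT, any 9 bases and CCACG, for its variant, which is ATTGG, any 1 base and CCACG, and for TGACGTGG, the core of the XBP1 site. In the stretches below, written 5′ to 3′ in the direction of the gene and ending before its start, capitals mark the fixed letters of a match, and CGTGG followed by ATTGG is the element on the opposite strand.
Hspa5, chr2:34772005-34772089, plus strand: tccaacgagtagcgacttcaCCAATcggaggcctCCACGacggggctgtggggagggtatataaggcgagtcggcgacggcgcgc
Hsp90b1, chr10:86705513-86705676, minus strand: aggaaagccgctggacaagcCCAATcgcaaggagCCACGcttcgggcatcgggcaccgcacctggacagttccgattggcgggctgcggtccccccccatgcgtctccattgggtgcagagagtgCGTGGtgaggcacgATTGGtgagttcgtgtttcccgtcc
Calr, chr8:84847055-84847113, minus strand: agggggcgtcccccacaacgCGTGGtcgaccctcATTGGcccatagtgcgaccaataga
Herpud1, chr8:94386357-94386407, plus strand: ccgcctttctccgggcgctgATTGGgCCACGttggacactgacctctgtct

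The first element was present in Hspa5, Hsp90b1 and Calr, 3 of the 5 chaperone promoters, and in 0.119% of all 32851 windows. Its match in Hspa5 began 65 bases before the start, at -65, and the 2 matches in Hsp90b1 began at -212 and -107. The variant was found in Herpud1 and in 0.0365% of all windows. TGACGTGG occurred in 0 of the 9 members and in 0.676% of all windows. Among the other folding genes listed further on, the first element lay in the windows of Canx, Pdia6, Dnajc3, Creld2 and Ero1b, 5 of 17. The windows of Pdia4, Dnajb9, Xbp1, Ern1 and Eif2ak3 held none of the 3 letter strings. A match is a string of letters and not a measured site of binding.

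Several facts of the arrays bear on all values below. Correlations between arrays lay between 0.935 and 0.991. The interquartile range of an array was 2.26 and 2.15 in KO hosts 2 and 3, 2.59 and 2.47 in WT hosts 2 and 5 and at least 2.70 on each of the remaining 8 arrays. Sqstm1, which encodes p62, ranged from 8.17 to 9.22 in KO hosts and from 8.55 to 9.16 in WT hosts. It does not check the genotypes because the injected cells are not described as lacking the gene. Of the tissue's defining markers, the prostate secretion gene Pbsn read between 2.81 and 3.18, below the arrays' lower quartiles of 4.85 to 5.36. The epithelial gene Epcam read 4.32 to 5.16 and lay below the lower quartile of its own array in every tumour. The epithelial genes Cdh1, at 5.45 to 6.06, Krt18, at 5.58 to 6.36, and Krt8, at 7.76 to 8.65, lay above those quartiles. So did the mesenchymal gene Vim, at 12.19 to 12.42. All 10 members lay above those quartiles.

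The level of the chaperones and sensors did not differ between hosts beyond the spread among tumours. All 10 genes read lower on average in tumours of KO hosts, by 0.01 to 0.31 on the log2 scale, and 0 passed limma's test across all 28192 probe sets, where 1, or 0.00355%, passed. At an unadjusted p under 0.05 there were 0 of the 10, against 2.39% of all probe sets in either direction and 1.11% in the lower one, and the hosts' ranges overlapped for every member, as for all but 0.145% of probe sets. The median difference of the members was -0.16, that of all probe sets was 0.02, and 42.8% of all probe sets lay below 0. Among the 6656 named genes within the members' range of brightness the median was -0.08 and 70.1% lay below 0. Without KO hosts 2 and 3, 3 of the 10 members lay below 0 and their median was 0.02, beside 26.7% and 0.07 for the bright genes. In the 8 tumours with arrays of wider range, which leave out WT hosts 2 and 5 too, 7 members lay below 0 and their median was -0.06. The median of the bright genes there was 0.02, and 14686 of all 28192 probe sets lay below 0.

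**Figure D1:**
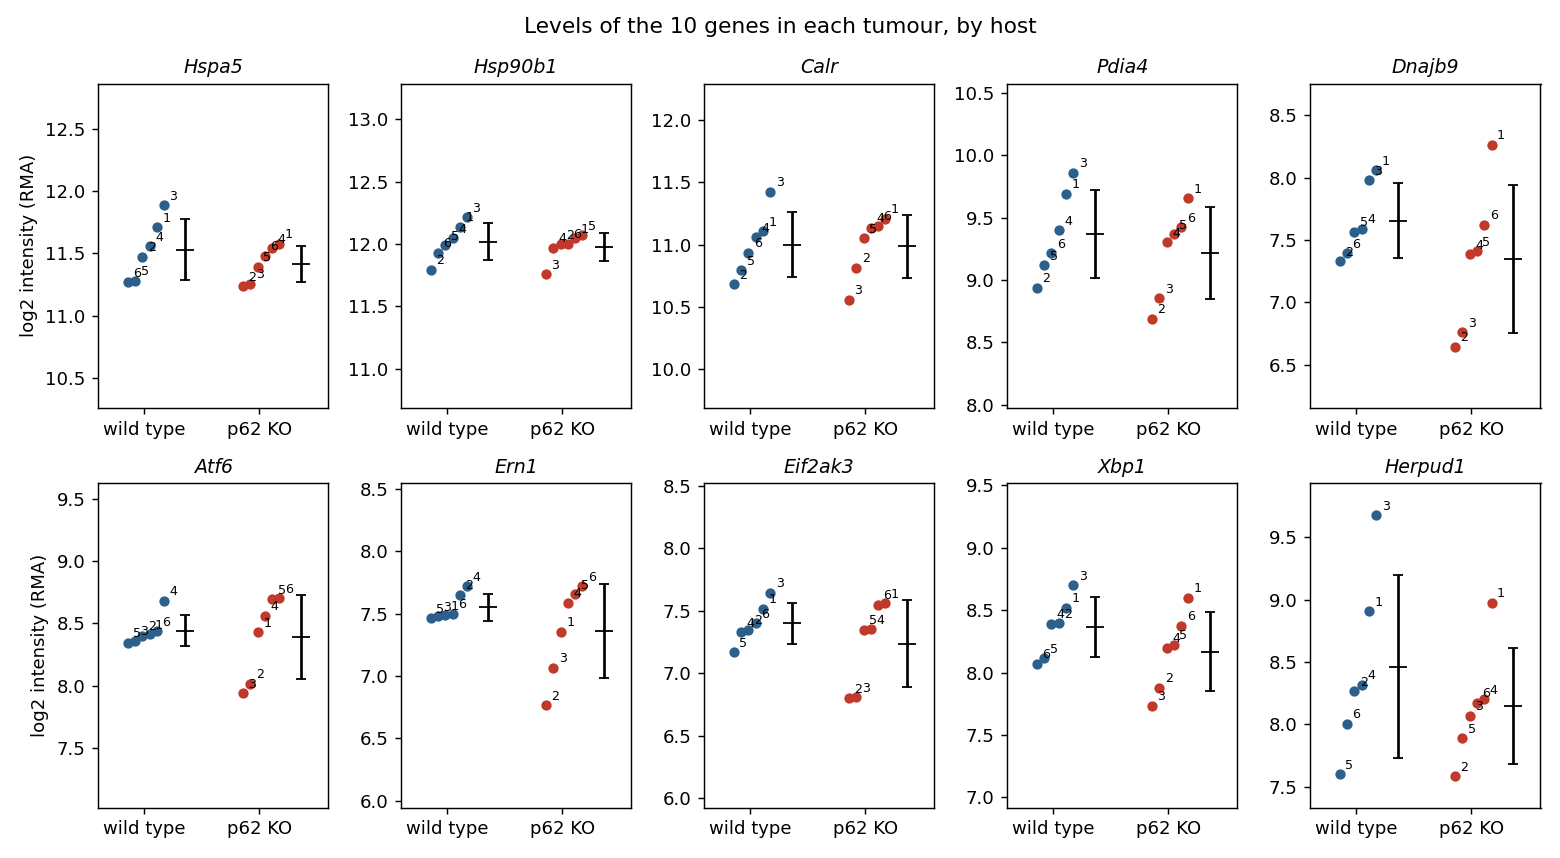
Log2 intensity (vertical axis, 2.6 units in each panel) of the 10 genes in tumours of wild-type hosts (blue) and p62 KO hosts (red). Each point is 1 tumour labelled with its mouse number, and the bar beside it is the mean with 1 SD over 6 tumours. The hosts' values overlap in every panel, and KO 2 and KO 3 are the lowest pair of the KO group in 8 of the 10.

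Hspa5, Hsp90b1 and Calr varied least among the chaperones. Hspa5 encodes BiP, the Hsp70 chaperone that holds the sensors inactive. It read 11.24 at the lowest, 11.44 at the median and 11.58 at the highest in KO hosts. In WT hosts the lowest, median and highest were 11.27, 11.52 and 11.89. The KO tumours thus lay inside or just below the WT range, and WT hosts 3 and 1, at 11.89 and 11.71, stood above every KO tumour. The means were 11.41 ± 0.14 (SD, n = 6) and 11.53 ± 0.24 (SD, n = 6), and the difference was -0.12 (SE 0.12, 95% interval -0.37 to 0.14, limma adjusted p = 0.9935).

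Hsp90b1 encodes GRP94, the Hsp90 of the compartment, which folds integrins and Toll-like receptors. Its lowest, median and highest levels were 11.76, 12.00 and 12.07 in KO hosts and 11.79, 12.02 and 12.21 in WT hosts. Only KO host 3 lay below the WT range and no KO tumour above it. The difference of -0.04 (SE 0.09, 95% interval -0.24 to 0.15) did not pass (limma adjusted p = 0.9935), and 9.47% of named genes had a smaller SD over the 12 tumours than the 0.13 of Hsp90b1. Calr encodes calreticulin, the lectin chaperone of glycoproteins and a calcium store. Its lowest, median and highest levels were 10.56, 11.09 and 11.21 in KO hosts and 10.68, 11.00 and 11.43 in WT hosts. The hosts covered nearly the same range, with means of 10.99 ± 0.25 (SD, n = 6) and 11.00 ± 0.26 (SD, n = 6) and a difference of -0.01 (SE 0.14, 95% interval -0.32 to 0.29, limma adjusted p = 0.9956).

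Pdia4 and Dnajb9 varied more. Pdia4 encodes ERp72, a disulfide isomerase. Its lowest, median and highest levels were 8.69, 9.33 and 9.66 in KO hosts and 8.94, 9.31 and 9.86 in WT hosts. KO hosts 2 and 3 lay below all WT tumours, and WT hosts 3 and 1 lay above all KO tumours. The difference was -0.15 (SE 0.19, 95% interval -0.56 to 0.25, limma adjusted p = 0.9935), and the second probe set of the gene, at means of 6.09 and 6.31, gave -0.22 (SE 0.22). The highest tumours of that second probe set were WT host 3, at 6.94, and KO host 1, at 6.87.

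Dnajb9 encodes ERdj4, a co-chaperone of BiP that XBP1 induces and that keeps IRE1 in check. It spanned 6.64 to 8.26 in KO hosts, with a median of 7.40, and 7.33 to 8.06 in WT hosts, with a median of 7.58. The KO group held both the lowest tumours of all, KO hosts 2 and 3 at 6.64 and 6.76, and the highest, KO host 1. Its means were 7.35 ± 0.59 (SD, n = 6) and 7.65 ± 0.30 (SD, n = 6). The difference was -0.31 (SE 0.24, 95% interval -0.83 to 0.21, limma adjusted p = 0.9935), or 1.24-fold lower in KO hosts. It moved to 0.02 (SE 0.19) without KO hosts 2 and 3 and to -0.49 without KO host 1.

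The sensors differed by -0.05 for Atf6, -0.19 for Ern1 and -0.16 for Eif2ak3, with none passing (limma adjusted p = 0.9935 for each). Atf6 encodes the membrane-bound factor that is cut in the Golgi. Its lowest, median and highest levels were 7.94, 8.50 and 8.70 in KO hosts and 8.35, 8.41 and 8.68 in WT hosts. The KO tumours surrounded the WT tumours, with KO hosts 2 and 3 below all of them and KO hosts 5 and 6 above. The means were 8.39 ± 0.34 (SD, n = 6) and 8.44 ± 0.12 (SD, n = 6), with an SE of the difference of 0.14 and a 95% interval of -0.35 to 0.25.

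Ern1 encodes IRE1, the kinase and ribonuclease that splices Xbp1. It read 6.77, 7.47 and 7.72 at the lowest, median and highest in KO hosts, and 7.46, 7.49 and 7.72 in WT hosts. The WT tumours lay close together, with an SD of 0.11 against 0.38 in KO hosts, and KO hosts 1, 2 and 3 fell below all of them. Without KO hosts 2 and 3 its difference was 0.03 (SE 0.09). Eif2ak3 encodes PERK, the kinase that phosphorylates the translation factor eIF2. It spanned 6.80 to 7.56 in KO hosts, around a median of 7.35, and 7.17 to 7.64 in WT hosts, around a median of 7.37. KO hosts 2 and 3, at 6.80 and 6.81, stood apart at the low end. Without them its difference was 0.05 (SE 0.10).

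Xbp1, the factor that IRE1 activates by splicing, is read here as 1 probe set, which was not split into spliced and unspliced forms. Its lowest, median and highest levels were 7.73, 8.21 and 8.60 in KO hosts and 8.07, 8.39 and 8.70 in WT hosts. KO hosts 2 and 3 lay below the WT range. The difference was -0.20 (SE 0.15, 95% interval -0.53 to 0.13, limma adjusted p = 0.9935), and it was -0.02 (SE 0.13) without those 2 tumours.

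Herpud1, a membrane protein that assembles the degradation complex, varied most, with a range of 2.09 and an SD larger than that of 98.4% of named genes. It read 7.59, 8.12 and 8.98 at the lowest, median and highest in KO hosts, and 7.60, 8.29 and 9.68 in WT hosts. WT host 3, at 9.68, stood above the next tumour, KO host 1 at 8.98, whereas the lows of both groups were alike. The difference was -0.31 (SE 0.31, 95% interval -0.98 to 0.35, limma adjusted p = 0.9935). Without WT host 3 it was -0.07.

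**Figure D2:**
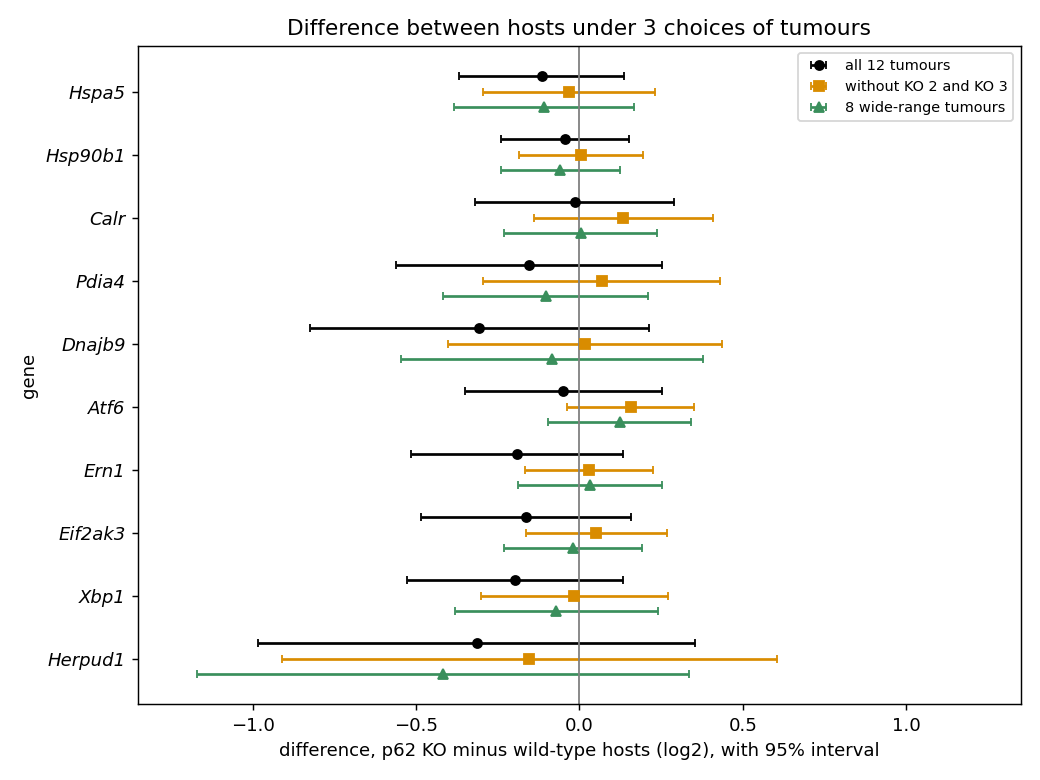
Difference between hosts (horizontal axis, log2, p62 KO minus wild type) for the 10 genes (rows), with 95% intervals from limma, over all 12 tumours (black), without KO 2 and KO 3 (orange) and in the 8 tumours with wider arrays (green). Every interval includes 0, and 7 of the 10 orange points lie above 0.

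For every member the SD over the 12 tumours was larger than the difference between host averages. That SD includes the difference itself, so this largely restates the test above and is not particular to these genes. The tumours at the top were not the same for every gene. WT host 3 was the highest tumour in 7 of the 10 genes and among the 3 highest in 8, including all 5 chaperones. KO host 1 was among the 3 highest in 7 genes and WT host 1 in 6. At the other end KO host 2 was lowest in 6 genes and KO host 3 in the other 4. Measured as the deviation from each gene's own mean over the 12 tumours, WT host 3 read 0.42 for Hspa5, 0.57 for Pdia4, 0.43 for Xbp1 and 1.37 for Herpud1. KO host 1 read 0.76 for Dnajb9 and 0.67 for Herpud1, so the upper end held tumours of both hosts.

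**Figure D3:**
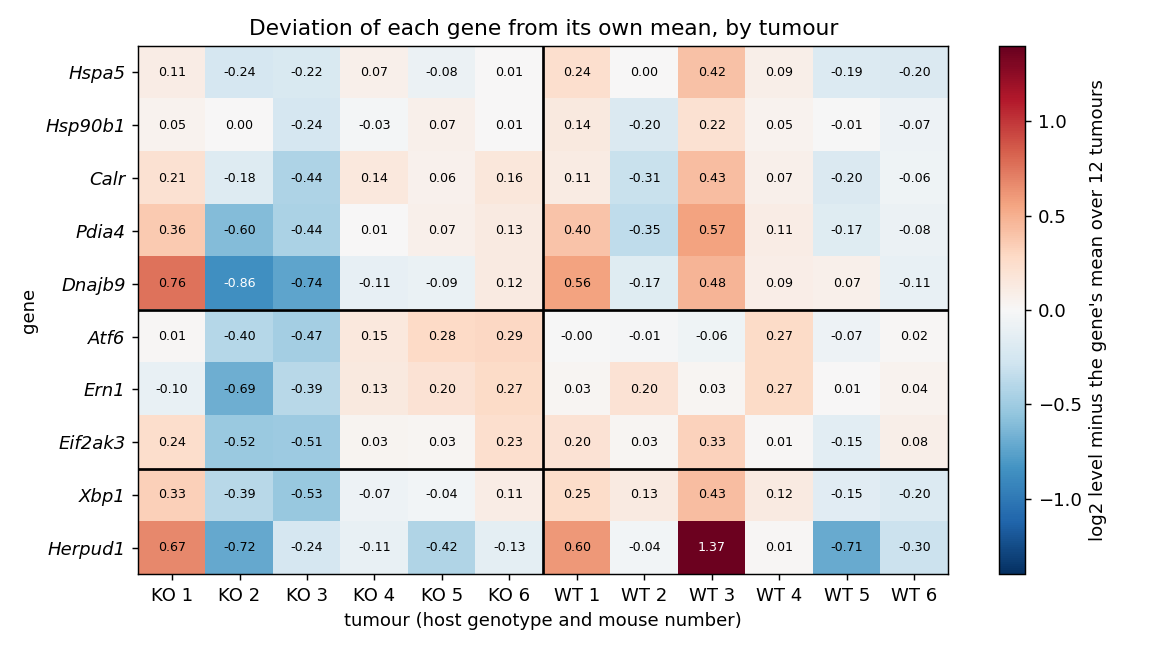
Deviation of each gene (rows, chaperones above, sensors in the middle, Xbp1 and Herpud1 below) from its own mean over 12 tumours, in log2 units (colour and printed value), for each tumour (columns, p62 KO left and wild type right). WT 3, WT 1 and KO 1 are high for the chaperones, Eif2ak3, Xbp1 and Herpud1, and KO 2 and KO 3 are low in most rows.

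Part of this was shared with other bright genes and part was not. In KO hosts 2 and 3 the median deviation of the 6656 genes of like brightness was -0.32 and -0.41, and the members' means of -0.46 and -0.42 lay beside them, with 4 and 1 members below the lower quartile of those genes. In WT host 3 the median of those genes was 0.15 while the members' mean was 0.42, and 7 members lay above the upper quartile. WT host 1 had 7 members above the upper quartile and KO host 1 had 6. WT host 6 was the reverse, with a median of 0.10 for the bright genes, a mean of -0.09 for the members and 7 members below the lower quartile. KO hosts 4 and 5 went the same way, with medians of 0.14 and 0.12 and members' means of 0.02 and 0.01. They had 5 and 4 members below the lower quartile, and WT host 2 had 4. The low readings of KO hosts 2 and 3 lay near those of other bright genes, and the readings of WT hosts 1 and 3 and KO host 1 lay above them.

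Sensors and chaperones were set against each other by their differences and deviations, since levels of different probe sets are not comparable. The median difference between hosts was -0.12 for the 5 chaperones and -0.16 for the 3 sensors, a gap of 0.05. Another measure was the chaperones' mean deviation minus that of the sensors in each tumour. It averaged 0.0040 in KO and -0.0040 in WT hosts, with an SD within hosts of 0.20 for single tumours. No test was made of either measure because the genes were chosen with results of these tumours known. The tumours where the sets parted most are given next, and such single values cannot be set against averages over 6 tumours. WT host 3 had a mean deviation of 0.42 for the chaperones and 0.10 for the sensors, KO host 1 had 0.30 and 0.05, and WT host 1 had 0.29 and 0.08. WT host 2 showed the opposite, at -0.21 and 0.07, and KO host 6 read 0.09 and 0.26.

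**Figure D4:**
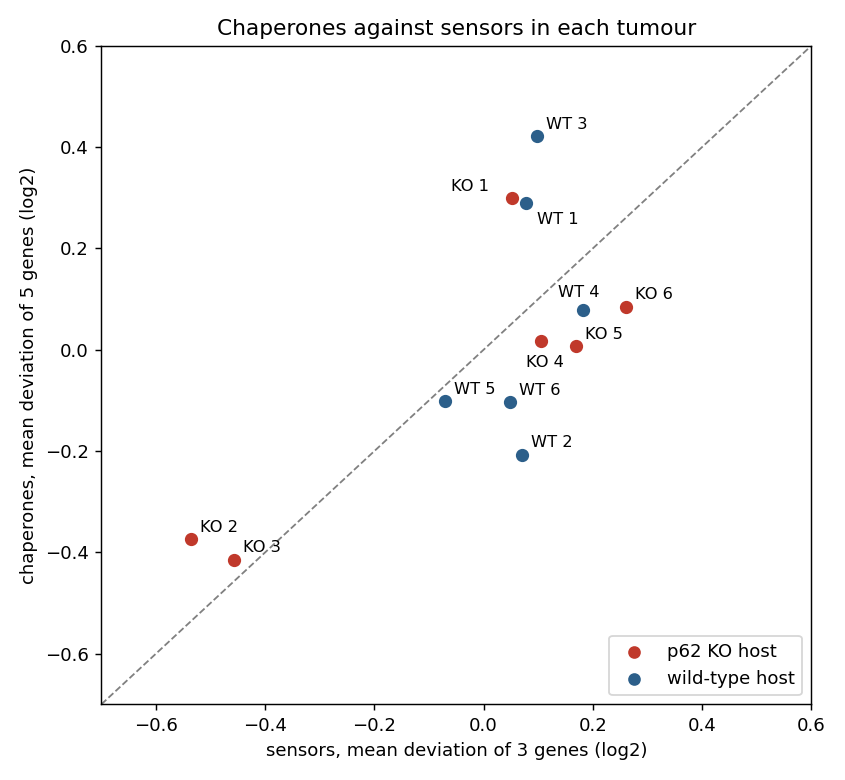
Mean deviation of the 5 chaperones (vertical axis) against that of the 3 sensors (horizontal axis), both in log2 units from each gene's mean, for 12 tumours of p62 KO (red) and wild-type (blue) hosts. The dashed line marks equal deviation: WT 3, KO 1 and WT 1 lie farthest above it, KO 2 and KO 3 lie above it at the low end of both axes, and the other 7 tumours lie below it.

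The sensors did not move as 1 set. Eif2ak3 was highest in WT host 3, KO host 1 and KO host 6, at 7.64, 7.56 and 7.55, so that its upper end overlapped with that of the chaperones. Atf6 was highest in KO hosts 6 and 5 and WT host 4, at 8.70, 8.69 and 8.68, and Ern1 in WT host 4, KO host 6 and KO host 5, at 7.72, 7.72 and 7.65. WT host 3 had rank 9 among the 12 tumours for Atf6, at 8.36, and rank 8 for Ern1, at 7.48. The sensors also spread more in KO than in WT hosts, at SDs of 0.34 against 0.12 for Atf6, 0.38 against 0.11 for Ern1 and 0.35 against 0.16 for Eif2ak3. In the 8 tumours with wider arrays, 4 per group, these SDs were 0.13 against 0.14 for Atf6, 0.16 against 0.12 for Ern1 and 0.12 against 0.14 for Eif2ak3. The chaperones had no common order over all tumours: the SDs in KO and WT hosts were 0.59 and 0.30 for Dnajb9, 0.37 and 0.35 for Pdia4, 0.25 and 0.26 for Calr, 0.11 and 0.15 for Hsp90b1 and 0.14 and 0.24 for Hspa5. These spreads were not tested.

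Genes around the members were examined in 4 lists of the same pathway. Of 20 other folding genes, 0 passed limma's test, 7 differed by more than 0 and 13 by less, and the median was -0.05. Dnajc3, the co-chaperone that restrains PERK, differed by -0.25 (SE 0.20) and Canx, the membrane-bound partner of calreticulin, by -0.10 (SE 0.08). Among 18 degradation and translocation genes 0 passed and 13 lay below 0, with a median of -0.07. Their ubiquitin ligase Syvn1 differed by -0.15 (SE 0.11), the retrotranslocation factor Derl2 by -0.27 (SE 0.18) and the channel subunit Sec61a1 by -0.16 (SE 0.11), whereas another channel subunit, Sec61b, differed by 0.23 (SE 0.18). These lists read close to the -0.08 of bright genes in general.

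The PERK arm had a median of 0.06 over 11 genes with 0 passing. Atf3, a stress factor downstream of ATF4, differed by 0.25 (SE 0.17), Cebpb by 0.26 (SE 0.18), the angiogenic factor Vegfa by 0.30 (SE 0.18) and the stress protein Nupr1 by -0.20 (SE 0.14). Relatives of ATF6 and their proteases had a median of -0.05 over 12 genes with 0 passing, among them Mbtps1, the protease that cuts ATF6, at -0.25 (SE 0.19), Creb3 at 0.15 (SE 0.11), Creb3l2 at -0.14 (SE 0.11) and Nfyb, a subunit of the factor that binds CCAAT, at -0.20 (SE 0.18).

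Of the other folding genes, Ero1a had the smallest unadjusted p and read higher on average in KO hosts. It encodes the oxidase that recharges disulfide isomerases and is also known as a hypoxia target. Its lowest, median and highest levels were 9.95, 10.20 and 10.87 in KO hosts and 8.77, 9.24 and 10.61 in WT hosts. KO tumours lay in the upper part of the scale, and only WT hosts 2 and 5, at 10.61 and 10.14, reached into their range. The difference was 0.80 (SE 0.29), and it did not pass (limma adjusted p = 0.9935). WT host 3, the highest tumour for most chaperones, was the lowest for Ero1a. KO host 1 and WT host 1, also high for the chaperones, read 10.22 and 9.21.

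**Figure D5:**
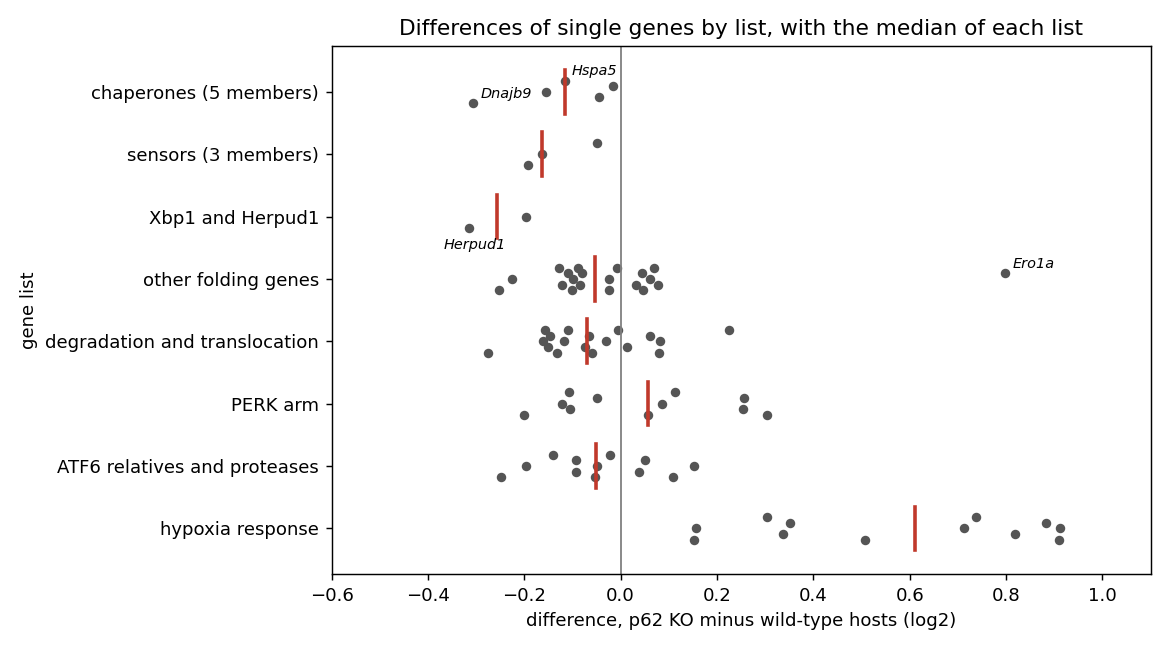
Difference between hosts (horizontal axis, log2, p62 KO minus wild type) of single genes (points) by list (rows), with each list's median in red; the vertical jitter within a row has no meaning. The members and the other endoplasmic reticulum lists lie around or just below 0 except Ero1a at 0.80, and the hypoxia list has a median of 0.61.

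The hypoxia list behaved likewise, at a median difference of 0.61 over 12 genes. At an unadjusted p under 0.05 there were 8 in the higher direction, against 1.28% of all probe sets, and 0 after adjustment. The list was chosen with earlier results of these tumours known, so that share is no test of the list. Its mean level was lowest in WT host 3, at 7.61, and highest in KO host 6, at 9.11. KO hosts spanned 8.31 to 9.11 and WT hosts 7.61 to 8.67. Of the 3 tumours with the highest Atf6, KO hosts 6 and 5 were the highest in this list, at 9.11 and 8.92, but WT host 4 was among the lower ones, at 7.98, and WT host 2, next in the list at 8.67, had rank 8 for Atf6. Whether low oxygen has a part in the levels of the members was not tested.

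Markers of other cells and of handling were set beside the members. Plasma cell markers, 10 genes, had mean levels of 5.75 to 6.00 in KO hosts and 5.57 to 6.10 in WT hosts, with WT host 1 highest. The list means of WT host 3 and KO host 1, at 5.86 and 5.83, lay below those of KO hosts 2, 3 and 4, at 6.00, 5.96 and 5.96. The genes had means of 4.73 to 7.31, and the arrays differed at their lower end. Lower quartiles were 5.27 and 5.36 in KO hosts 2 and 3, 4.86 in KO host 4, 4.87 in WT host 3 and 4.97 in KO host 1. Whether the list means follow those quartiles was not tested. Of these genes 7 differed by more than 0 and 3 by less, with 0 passing. The B cell gene Cd79a, at a difference of 0.63 (SE 0.13), was the only 1 at an unadjusted p under 0.05, against 1.28% of all probe sets in the higher direction. Its levels lay near or below the arrays' lower quartiles. Prdm1 differed by 0.20 (SE 0.13), Mzb1 by 0.09 (SE 0.14) and Jchain by -0.45 (SE 0.46). Jchain, the joining chain of antibodies, was highest in WT hosts 1 and 3, at 7.15 and 6.03. It read 4.03 to 5.77 in the other 10 tumours. The receptor Tnfrsf17 of mature plasma cells read 4.86 to 5.71, near the lower quartiles, and its lowest tumour was WT host 3. Prostate secretion markers averaged 3.85 to 4.46 in KO hosts and 3.92 to 4.40 in WT hosts, below those quartiles. Single genes of that list read higher. In WT host 4, Sbp read 6.05 and Spink1 5.82, above that array's lower quartile of 4.93. Elsewhere they read at most 3.66 and 4.20. Azgp1 read 4.64 to 5.89, highest in KO hosts 1 and 4, at 5.89 and 5.68. Fibroblast markers averaged 9.01 to 9.70 and 9.29 to 9.65, and macrophage markers 9.01 to 9.68 and 8.90 to 9.74. KO host 3 was the lowest tumour in the fibroblast list. KO host 1 and WT host 1 were the highest there, at 9.70 and 9.65, whereas WT host 3 read 9.35. In the macrophage list WT host 3 was the highest, and KO host 1 and WT host 1 read 9.50 and 9.46. Cytosolic heat shock and early response genes averaged 8.23 to 8.81 in KO hosts and 8.12 to 8.71 in WT hosts, and 2 of the 11 were higher in KO hosts at an unadjusted p under 0.05, with 0 passing after adjustment. These were Dusp1, a phosphatase of the early response, at a difference of 0.56 (SE 0.16), and the early response factor Fos, at 0.29 (SE 0.11). Hspa1a, the cytosolic Hsp70, differed by 0.47 (SE 0.22). The part of these cells and signs in the members' levels was not tested.

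The genes whose profile over the 12 tumours was most like that of a chaperone and a sensor were listed for Hspa5 and Eif2ak3. Likeness was the root-mean-square difference between levels centred on each gene's mean, over 15773 genes with a mean of at least 5. For Hspa5 its median over those genes was 0.28, and the closest were Psph, which makes serine, at 0.06, and Atf4, the factor that PERK raises, at 0.07. Psme3ip1, Zkscan3 and the cytosolic Hsp90aa1 followed, each at 0.09. For Eif2ak3 the closest were Tbx15, 4933434E20Rik, Helz, Rwdd4a and Zdhhc16, at 0.07 to 0.08. Atf4 itself read 8.98 in WT host 3 and 8.90 in WT host 1, its 2 highest tumours, and 8.34 and 8.37 in KO hosts 3 and 2, its 2 lowest.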

How the data were processed

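Per the labels' protocols, Tri-Zol was used for extraction and the Ovation Pico WTA System for biotin labelling. The authors deposited log2 intensities, 1 per probe set and tumour. RMA, a method of background correction, normalization and summary, is named by the submitters' processing notes, which give no version of it. The table has 34760 rows. Its 6568 lowest identifiers have no gene in the annotation and were treated as controls, which left 28192 probe sets, 21640 of them with 1 symbol. Where a gene had several, the one brightest on average was taken. Hosts were compared by limma (version 3.58.1, R 4.3.3) with a linear model and moderated variances and without covariates. Its two-sided p-values were adjusted by Benjamini-Hochberg over all 28192, with a threshold of 0.05. The script was tested on simulated data with known changes. Precision is limited by the number of arrays.

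The members and lists were chosen with earlier results of these data known. The 12 further lists name 142 genes, of which 134 were measured. Genes named are the members, up to 4 of each list with the smallest unadjusted p, and the 5 most like Hspa5 and Eif2ak3. Pbsn, Epcam, Cdh1, Krt8, Vim and Tnfrsf17 were named as defining markers, Sqstm1 as the targeted gene, and genes in the closing section for meeting a stated rule there. Sbp and Spink1 were named for their levels in WT host 4. Promoters are RefSeq's, of build GRCm38.p6. Alternatives were other scalings, filters, weights and covariates, and sets of tumours. Plots were drawn with matplotlib 3.10.9.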

Additional observations from a re-analysis of the deposited data

Results flagged for a closer look

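Dixon's ratio singled out 1 tumour in 5 of the 134 groups of 6 values examined, where about 1 in 20 would be singled out by chance. The groups were the KO and the WT values of 67 genes. These were the members, up to 4 genes of each list and the genes most like Hspa5 and Eif2ak3. Other list genes, Sbp and Spink1 among them, were not examined. KO host 3 read 11.76 for Hsp90b1, below the 11.97 to 12.07 of the other KO tumours, and 11.38 for Canx, below 11.66 to 11.80. WT host 4 read 8.68 for Atf6, above the 8.35 to 8.43 of the other WT tumours. KO host 2 read 9.58 for the translocon subunit Sec61b, above 8.36 to 8.78. KO host 1 read 4.58 for the B cell gene Cd79a, below 5.05 to 5.24, where values lie near or below the arrays' lower quartiles.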

How the results depend on the processing

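Over 24 alternatives, 0 members were called in each. The 1 probe set called became 0 with all rows of the table, with mouse number as a replicate block and without KO hosts 2 and 3. It was 0 to 1 when each tumour was left out, and over the 24 alternatives the count stayed at 1 in only 11. The labels do not say whether mouse numbers pair the tumours. Deviations of same-numbered tumours correlated at -0.549 to 0.369, above 0 in 4 of 6 pairs, and 2 of 12 tumours correlated best with their own number, so the number was not used as a block elsewhere. The gap between chaperones and sensors, 0.05, was -0.00 to 0.10 when each tumour was left out and -0.12 to 0.10 otherwise. Of 240 member values 21 changed direction, none of them for Hspa5, Xbp1 or Herpud1, and the cause was not tested. With quantile normalization the difference of Calr was 0.020. With array weights the difference of Calr was 0.079, Atf6 0.11, Nfyb 0.016, Mzb1 -0.097, Cdh2 0.13, Mki67 0.047, Hprt 0.011, Tbp 0.11, Tbx15 0.058 and 4933434E20Rik 0.050. With the interquartile range as covariate the difference of Calr was 0.043 and Atf6 0.011. Without KO hosts 2 and 3 the difference of Hsp90b1 was 0.0045, Calr 0.13, Pdia4 0.068, Dnajb9 0.017, Atf6 0.16, Ern1 0.029, Eif2ak3 0.052, Dnajc10 0.020, Sec61b -0.024, Nfyb 0.068, Mzb1 -0.097, Cdh2 0.17, Mki67 0.084, Hprt 0.013, Tbp 0.17, Tbx15 0.13, 4933434E20Rik 0.13, Helz 0.045 and Zdhhc16 0.016. In the 8 tumours with wider arrays the difference of Calr was 0.0040, Atf6 0.12, Ern1 0.033, Sec61b -0.010, Nfyb 0.013, Mzb1 -0.14, Cdh2 0.14, Mki67 0.025, Tbp 0.12, Tbx15 0.026 and 4933434E20Rik 0.026. Leaving out each tumour gave -0.013 to 0.15 for Col3a1, -0.053 to 0.0017 for Ppia, -0.078 to 0.071 for Calr, -0.11 to 0.041 for Atf6, -0.32 to 0.029 for Cdh2, -0.12 to 0.026 for Mki67, -0.21 to 0.017 for Hprt and -0.19 to 0.026 for Tbp. A filter on dim probe sets left no value for Cd79a, Msmb, Svs2 and Svs4.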
